A study of Mus musculus with 2 samples.

Results

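The noncoding host genes of small nucleolar RNAs (snoRNAs) were followed in newly made and preexisting RNA of mouse embryonic stem cells. They were chosen by gene symbol as Gas5, Snhg1, Snhg3, Snhg4, Snhg5, Snhg6, Snhg8, Snhg12, Zfas1 and Epb41l4aos, with all transcripts that GENCODE M21 gives to these symbols, whatever their biotype. Of these 10 genes, 8 had values, with 58 transcripts out of 121429 transcripts in 46052 genes. Gas5 had 25 transcripts, Snhg12 had 7, Snhg5 had 6, Snhg3, Snhg6 and Zfas1 had 5 each, Snhg8 had 3 and Epb41l4aos had 2. The 18 transcripts annotated for Snhg1 were not among the rows analysed here, and the symbol Snhg4 had no annotated transcript in this release, so the hosts Snhg1 and Snhg4 have no exon value in what follows. All 58 transcripts had a mean exon value above 1, and 57 had exon and intron values above 0 in both libraries, since a Snhg8 transcript had no intron.

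The cells were wild-type DTCM23/49 XY mouse embryonic stem cells, which had been freed of feeder cells and were grown on gelatin with serum and leukemia inhibitory factor. They were given 4-thiouridine (4sU), a uridine analog that enters RNA during its synthesis, at 200 µM for 10 min. RNA that carried 4sU was coupled to biotin and pulled down to give the labeled library, and what was left in the supernatant gave the unlabeled library. The description of the latter names it as preexisting RNA while its title and tag name it as total, and it is treated below as unlabeled. The study's question was how fast RNAs are made, processed and degraded when only 1 labeling time in 1 sample is at hand. Each library was present once, as replicate 1, so that no difference has a replicate check, no test was made, and each difference below compares 2 libraries. These are bulk libraries, in which fewer cells that express a gene and less of its RNA per cell cannot be told apart.

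Host genes of this kind carry snoRNAs inside their introns. The snoRNA is trimmed from the spliced and opened intron, is bound by proteins as it forms, and then guides the chemical modification of ribosomal RNA, as a C/D box snoRNA for methylation or as an H/ACA box snoRNA for pseudouridylation. The spliced exons carry no long open reading frame and are known as substrates of nonsense-mediated decay, the pathway that removes RNAs with an early stop codon during translation. Many hosts, Gas5 among them, belong to the 5′ terminal oligopyrimidine (TOP) RNAs, which begin with a run of C and T like the RNAs of ribosomal proteins.

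The start sites are shown first because they are shared by the spliced RNA and by the snoRNAs that it carries. RefSeq gave a start on GRCm38.p6 for 7 of the hosts, and each line below runs from 40 bases before the start to 30 bases from it on, 5′ to 3′ on the strand of the gene. Capitals mark the longest run of C and T that touched the 5 bases before or the 15 bases from the start, and the letters TATA where they lay wholly between 40 and 20 bases before it. For Gas5, which had 2 starts in the table, the start near which 10 annotated transcripts began is shown. The other start, near which 1 transcript began, had a run of 3, as long as in 82.6% of start sites, and no TATA.
Gas5 (chr1:161035126-161035195, plus strand): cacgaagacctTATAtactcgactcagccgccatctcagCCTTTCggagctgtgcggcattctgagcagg
Snhg12 (chr4:132308638-132308707, plus strand): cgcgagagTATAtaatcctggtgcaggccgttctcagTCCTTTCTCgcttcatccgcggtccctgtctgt
Snhg1 (chr19:8723447-8723516, plus strand): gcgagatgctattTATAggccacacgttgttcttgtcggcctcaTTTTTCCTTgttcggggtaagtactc
Snhg8 (chr3:123508307-123508376, minus strand): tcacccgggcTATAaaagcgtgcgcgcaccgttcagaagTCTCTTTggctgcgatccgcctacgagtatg
Snhg5 (chr9:88522868-88522937, minus strand): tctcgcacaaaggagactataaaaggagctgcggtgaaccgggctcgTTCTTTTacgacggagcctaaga
Snhg3 (chr4:132353657-132353726, minus strand): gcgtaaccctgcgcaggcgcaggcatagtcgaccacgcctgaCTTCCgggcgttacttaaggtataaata
Zfas1 (chr2:167062894-167062963, plus strand): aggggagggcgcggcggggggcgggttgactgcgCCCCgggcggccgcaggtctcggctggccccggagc
The run was 9 bases long in Snhg1 and Snhg12, 7 in Snhg5 and Snhg8, 6 in Gas5, 5 in Snhg3 and 4 in Zfas1. It spanned the start in Gas5, Snhg8 and Snhg12 and lay wholly before it in Zfas1. With the start counted as base 1, it began at base 3 in Snhg3, 5 in Snhg1 and 8 in Snhg5. Over 32851 start sites of the same table, a run of at least 9 was held by 9.04%, of at least 7 by 19.1%, of at least 6 by 28.7%, of at least 5 by 44.1% and of at least 4 by 63.4%. The letters TATA, which read the same on both strands, were found at the start shown of Gas5, and in Snhg1, Snhg8 and Snhg12, against 5.34% of all start sites. Snhg5 held the same letters across the end of that stretch. These are matches of letters in a window and show neither bound factors nor the first base of the RNA in these cells.

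In the introns of the hosts, GENCODE M21 placed 33 snoRNA transcripts of 31 symbols, between 60 and 205 bases long. Gas5 held 10 of them, Snhg1 held 8, Snhg12 held 5, Zfas1 held 3, Snhg3 and Snhg5 held 2 each, and Snhg6, Snhg8 and Epb41l4aos held 1 each. A script looked for the C box TGATGA near the 5′ end together with the D box CTGA near the 3′ end, and for the letters ACA followed by 3 bases at the 3′ end. Both C and D boxes were found in 21 snoRNAs of 60 to 93 bases, the ACA end in 7 snoRNAs of 130 to 205 bases, and none of these in 5. The 4 snoRNAs with an ACA end that are shown next had values in both libraries, with ACA in capitals.
Snora73a (chr4:132352775-132352979, minus strand): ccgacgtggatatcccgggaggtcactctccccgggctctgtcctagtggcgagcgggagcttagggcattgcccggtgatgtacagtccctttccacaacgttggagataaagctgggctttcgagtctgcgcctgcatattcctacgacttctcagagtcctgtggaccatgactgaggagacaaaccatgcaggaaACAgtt
Snora73b (chr4:132352322-132352526, minus strand): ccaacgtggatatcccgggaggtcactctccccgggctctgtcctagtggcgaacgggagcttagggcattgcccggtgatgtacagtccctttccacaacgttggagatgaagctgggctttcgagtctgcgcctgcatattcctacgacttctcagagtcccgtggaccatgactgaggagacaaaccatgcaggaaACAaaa
Snora24 (chr3:123507937-123508066, minus strand): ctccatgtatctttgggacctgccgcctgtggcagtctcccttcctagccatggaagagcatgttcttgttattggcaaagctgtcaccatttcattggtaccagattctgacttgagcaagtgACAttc
Snora61 (chr4:132310240-132310369, plus strand): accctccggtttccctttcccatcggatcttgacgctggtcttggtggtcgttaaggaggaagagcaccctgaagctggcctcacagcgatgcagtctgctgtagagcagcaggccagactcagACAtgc
The next 5 have C and D boxes, in capitals. The first 3, from introns of Gas5 and Zfas1, were listed above 0 in labeled RNA only, and the last 2, from introns of Gas5 and Snhg5, were listed at 0 in both libraries.
Gm22357 (chr1:161036057-161036139, plus strand): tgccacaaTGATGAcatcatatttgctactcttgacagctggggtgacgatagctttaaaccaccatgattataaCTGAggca
Mir5117 (chr1:161037356-161037439, plus strand): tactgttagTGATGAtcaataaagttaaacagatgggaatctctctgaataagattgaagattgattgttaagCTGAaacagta
Gm25878 (chr2:167063473-167063565, plus strand): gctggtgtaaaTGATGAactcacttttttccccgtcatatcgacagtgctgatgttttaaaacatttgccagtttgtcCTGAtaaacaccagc
Snord47 (chr1:161038082-161038158, plus strand): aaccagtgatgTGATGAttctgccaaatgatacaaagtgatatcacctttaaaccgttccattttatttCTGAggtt
Snord50a (chr9:88521529-88521600, minus strand): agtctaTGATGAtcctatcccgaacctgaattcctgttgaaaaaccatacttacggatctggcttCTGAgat
Sequences were read from the GENCODE M21 transcripts on GRCm38, on the strand of the gene.

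The exon RNA of the hosts took a larger share of labeled than of unlabeled RNA. The 58 transcripts together had 0.376% of the labeled and 0.123% of the unlabeled total. The exon value, which is scaled to length and to the library total and equals 10 times TPM, was at least 2-fold higher in labeled RNA for 50 of 58 transcripts and at least 2-fold lower for 0, where 27.6% of 74834 transcripts were called higher and 21.1% lower. The median labeled to unlabeled exon ratio was 3.46 for the hosts, with a range of 1.36 to 11.6, and 1.00 for all transcripts. On the log2 scale these medians were 1.79 and 0.00. By summed exon values, 7 of 8 host genes were called higher, against 28.9% of 22757 genes. A host with many isoforms counts many times among the transcripts, and isoforms share bases and are not replicates.

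**Figure D1:**
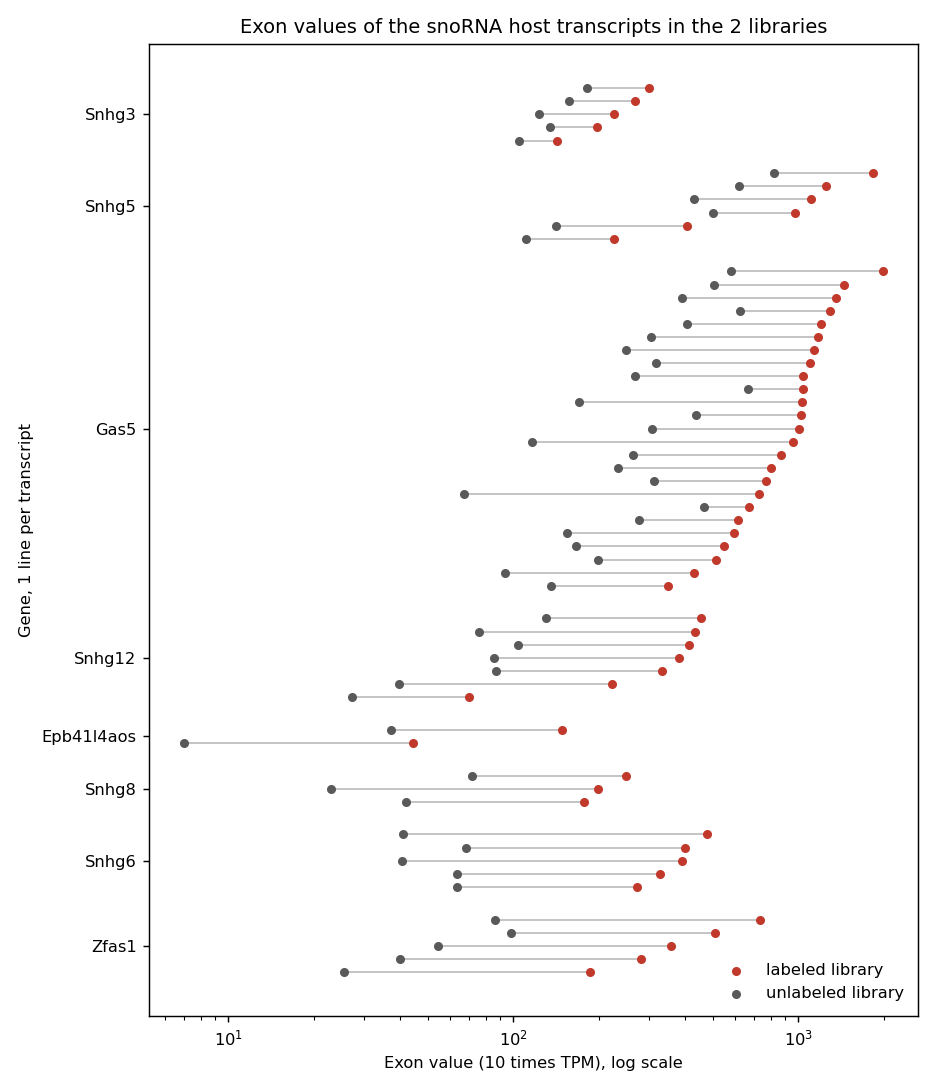
Exon values (horizontal axis, 10 times TPM, log scale) of the 58 host transcripts, 1 line per transcript and grouped by gene. The red point (labeled library) lies to the right of the gray point (unlabeled library) in every line, and the ratio runs from 1.36 in a Snhg3 transcript to 11.6 in a Snhg6 transcript.

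Zfas1 and Snhg6 had the highest ratios. Zfas1 lies antisense to Znfx1 (chr2:167062934-167065862, plus strand) and carries C/D box snoRNAs. Its summed exon value was 2063 in labeled and 304.2 in unlabeled RNA, a ratio of 6.78. Its most abundant transcript, ENSMUST00000143587, had 731.2 and 86.1. All 5 Zfas1 transcripts were higher in labeled RNA, with ratios of 5.18 to 8.49. Their values were 185.7 to 731.2 labeled and 25.4 to 98.2 unlabeled, a spread over isoforms and not over replicates. Snhg6, the host of Snord87 (chr1:9941959-9944118, minus strand), had summed exon values of 1864 and 276.5, a ratio of 6.74. Its 5 ratios ran from 4.28 to 11.6, and the highest belonged to its most abundant transcript, ENSMUST00000182498, with 476.4 labeled and 41.0 unlabeled. Both genes share exon bases with a gene on the other strand, 82 bases of Zfas1 with Znfx1 and 127 bases of Snhg6 with Mcmdc2, and whether the libraries kept the strand is not given in the sources used here. The Znfx1 transcript had exon values of 12.8 and 26.1 and the Mcmdc2 transcript 77.5 and 13.5, and the part of shared reads in the ratios was not tested.

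Snhg8 and Snhg12, hosts of H/ACA box snoRNAs among others, had ratios above 4. Snhg8 (chr3:123507552-123508404, minus strand) had summed exon values of 622.6 labeled and 136.3 unlabeled, a ratio of 4.57. Its transcripts with introns, ENSMUST00000196466 and ENSMUST00000199645, had 247.5 and 176.8 in labeled RNA and 71.4 and 42.0 in unlabeled RNA. The Snhg8 transcript without an intron, ENSMUST00000198509, had 198.3 and 22.8, the highest ratio of the 3 at 8.69. It is annotated as a retained intron and spans Snora24, and reads of spliced, unspliced and snoRNA RNA were not told apart in its exon value. Snhg12 (chr4:132308623-132311024, plus strand) summed to 2310 and 548.6, a ratio of 4.21. Its most abundant transcript, ENSMUST00000182826, had 456.8 and 130, and all 7 Snhg12 transcripts were called higher, at 2.58 to 5.73-fold. Of the 10 annotated Snhg12 transcripts, the other 3 were not among the rows analysed here.

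Gas5 (growth arrest specific 5) had by far the most transcripts. The gene (chr1:161034422-161038539, plus strand) had 25 transcripts with exon values of 349 to 1988, median 1003, in labeled RNA and 67.2 to 665.2, median 275.2, in unlabeled RNA. The ranges over isoforms overlapped, but each isoform was higher in labeled RNA, and 23 of 25 by at least 2-fold. The most abundant transcript, ENSMUST00000161623, had 1988 and 581.8, a ratio of 3.42. The lowest ratios were 1.44 for ENSMUST00000161380, with 672.8 and 466.6, and 1.56 for ENSMUST00000160152, with 1036 and 665.2. The highest was 10.8 for ENSMUST00000160516, with 725.9 and 67.2. This transcript and ENSMUST00000159037, with a ratio of 8.28, both begin in the 3′ part of the gene and have 2 exons. So does ENSMUST00000163081, whose ratio of 3.30 lay near the Gas5 median of 3.32, so these traits do not set the high ratios apart. Gas5 overlaps Zbtb37 on the other strand without sharing exon bases.

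Snhg5 and Snhg3 had the lowest ratios. Snhg5 (chr9:88521050-88522929, minus strand), the host of Snord50a and Snord50b, was among the most abundant hosts in unlabeled RNA. Its most abundant transcript, ENSMUST00000182517, had 1827 labeled and 823 unlabeled, and the summed values of 5790 and 2626 gave a ratio of 2.21. Its ratios ran from 1.95 to 2.90, close to the threshold, so that 5 of 6 transcripts were called. Just inside the threshold were ENSMUST00000182232 at 2.01 and ENSMUST00000190033 at 2.03, and just outside was ENSMUST00000180563 at 1.95. Snhg3 (chr4:132348014-132353686, minus strand), the host of Snora73a and Snora73b, had no transcript called. Its 5 exon values were 299.6, 266.6, 224.6, 196.6 and 142.6 in labeled RNA and 180.6, 157.1, 122.8, 134.2 and 104.6 in unlabeled RNA for ENSMUST00000152943, ENSMUST00000151374, ENSMUST00000141090, ENSMUST00000136127 and ENSMUST00000155816. The ratios of 1.36 to 1.83 lay above 1 in all 5, but the ranges over isoforms overlapped between the libraries. Snhg3 shares 705 exon bases with the antisense gene Gm17300, whose exon values were 243.9 and 121.4, and 107 to 135 bases with transcripts of Rcc1 on its own strand, so its values are uncertain where reads could be split among them.

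Epb41l4aos, a noncoding gene next to Epb41l4a on chromosome 18, was the least abundant host. Its transcripts had 147.9 and 44.4 in labeled RNA and 37.1 and 6.99 in unlabeled RNA. The summed values of 192.2 and 44.1 gave a ratio of 4.36, and its snoRNA Gm23639 had 78.9 labeled and 7.10 unlabeled.

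Gene lists that share a feature with the hosts had different medians. Cytosolic ribosomal protein genes, whose RNAs are the best known TOP RNAs, had a median ratio of 2.69, with 64 of 82 genes called higher and 0 lower. Rpl37a was the highest of those with summed values of at least 100, with 2067 labeled and 385.9 unlabeled, and Rpl4 the lowest, with 5737 and 5947. Protein-coding genes with snoRNAs in their introns had a median of 0.805, and 41 of 229 were called higher and 49 lower. This list overlaps that of the ribosomal protein genes, and it shares Snhg11, Nop56, Nop58 and Dkc1 with lists given below. Many of its genes called higher, such as Rpl12, Rps13 and Rpl27a, are also in the list of ribosomal protein genes. Among the protein-coding hosts with summed values of at least 100 in both libraries, Rpl27a was the highest at 4.49 and Gtf2a1 the lowest at 0.238. Of 6 other Snhg genes that passed, 3 were called higher, with a median of 2.64, and with that limit Snhg15 was the highest at 4.45 and Snhg14 the lowest at 1.49. The median of the 8 hosts was 4.29 and that of all genes 1.07.

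Genes of proteins that act on the hosts' products had lower medians than the hosts. The proteins of snoRNA particles had a median ratio of 1.08 over 14 genes, with 2 called higher and 2 lower. With the same limit of 100, Nop10 was the highest at 2.79 and Dkc1, the pseudouridine synthase, the lowest at 0.460. The genes of nonsense-mediated decay had a median of 0.688 over 19 genes, with 1 called higher and 5 lower. With that limit, Rbm8a, a protein of the exon junction complex, was the highest at 2.16 and Casc3 the lowest at 0.439, while Upf1, Dcp2 and Dcp1a, which lay under it, were at 0.277, 0.371 and 0.375. These medians and counts describe 2 libraries.

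**Figure D2:**
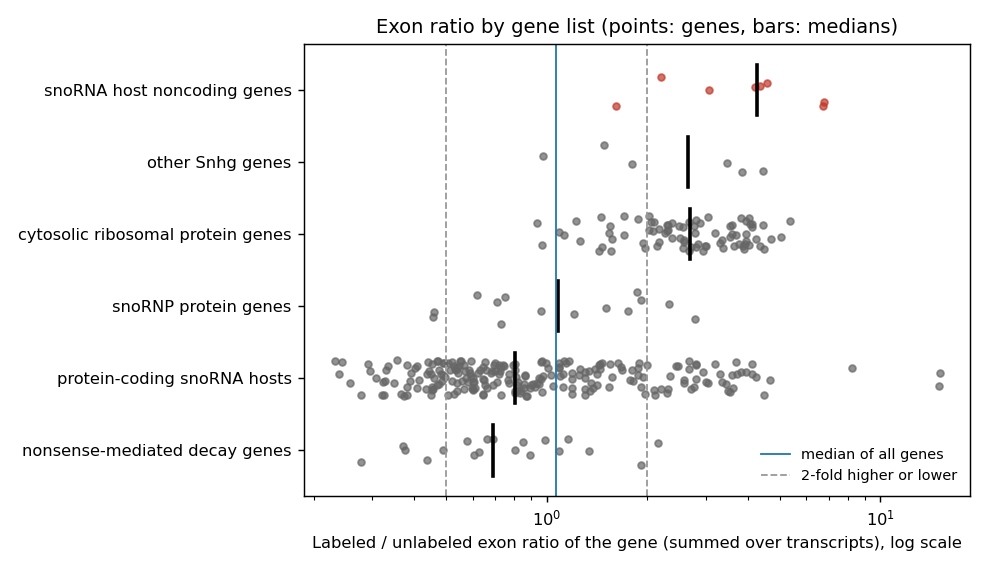
Labeled to unlabeled exon ratio of each gene (horizontal axis, log scale) in the hosts (red) and 5 comparison lists (gray), with the median of each list as a black bar, the median of all genes as a blue line and the 2-fold limits dashed. The bar of the hosts stands at 4.29, that of the ribosomal protein genes at 2.69 and that of the protein-coding hosts at 0.805.

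The exon ratio differed between length classes. The hosts had 303 to 2556 exonic bases, median 603, against a median of 1296 over 66600 transcripts. Transcripts of more than 400 and up to 600 bases had a median ratio of 1.02 over all transcripts and 3.46 over 24 host transcripts, and those of more than 600 and up to 800 bases had 0.926 and 3.91, the latter over 16. In the other classes the median of all transcripts was 1.26 at up to 400 bases, 1.01 at up to 1000, 1.07 at up to 2000, 0.815 at up to 5000 and 0.588 above that, so that it did not fall at each step. Length mattered more among transcripts with a mean exon value above 100, a limit not applied to the hosts. Their medians were 1.43, 0.86, 0.73, 0.78, 0.71, 0.50 and 0.44 from the shortest to the longest class. The share called higher was 39.5% in the shortest and 0.596% in the longest. Over the 6 length classes that held hosts, the host medians ran from 2.20 to 5.73.

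Intron RNA of the hosts was also higher in labeled RNA, and in unlabeled RNA its median relative to the exons was above that of all transcripts. The intron value, given for all introns of a transcript together, had a median labeled to unlabeled ratio of 6.73 over 57 host transcripts and 3.98 over 55140 transcripts. The intron to exon ratio in labeled RNA had a median of 0.587 in the hosts and 0.607 in all transcripts. In unlabeled RNA the medians were 0.288 and 0.133. The labeled ratio was above the unlabeled ratio in 46 of 57 host transcripts and in 49156 of all 55140. A labeled ratio of 1 or more was seen in 12 of 57, where 31.0% of all transcripts had one, and an unlabeled ratio of 1 or more in 6 of 57, where 11.8% had one.

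The hosts fell apart in the intron signal of unlabeled RNA. The median unlabeled intron to exon ratio was 0.0391 in Snhg5, 0.0857 in Snhg12 and 0.0882 in Snhg8, below the median of all transcripts. It was 0.377 in Snhg6, 0.443 in Gas5, 0.452 in Snhg3, 0.458 in Zfas1 and 1.70 in Epb41l4aos. The last lies midway between 0.378 in its most abundant transcript and 3.02 in the other, whose unlabeled exon value was 6.99. Isoforms differed within other hosts too, from 0.0886 to 2.82 in Gas5. As a fold of the intron value, Snhg8 had the widest gap between the libraries. Its intron values were 157.3 and 264.1 in labeled RNA and 3.60 and 5.29 in unlabeled RNA. The most abundant Snhg5 transcript had 324.9 and 14.9, and that of Snhg12 had 388.9 and 12.3. In contrast, the most abundant Gas5 transcript had 788.7 and 257.8, and that of Snhg3 had 175.9 and 69.5. Transcripts annotated as retained introns, 27 of the 57, had a median unlabeled ratio of 0.303, and the others 0.273.

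**Figure D3:**
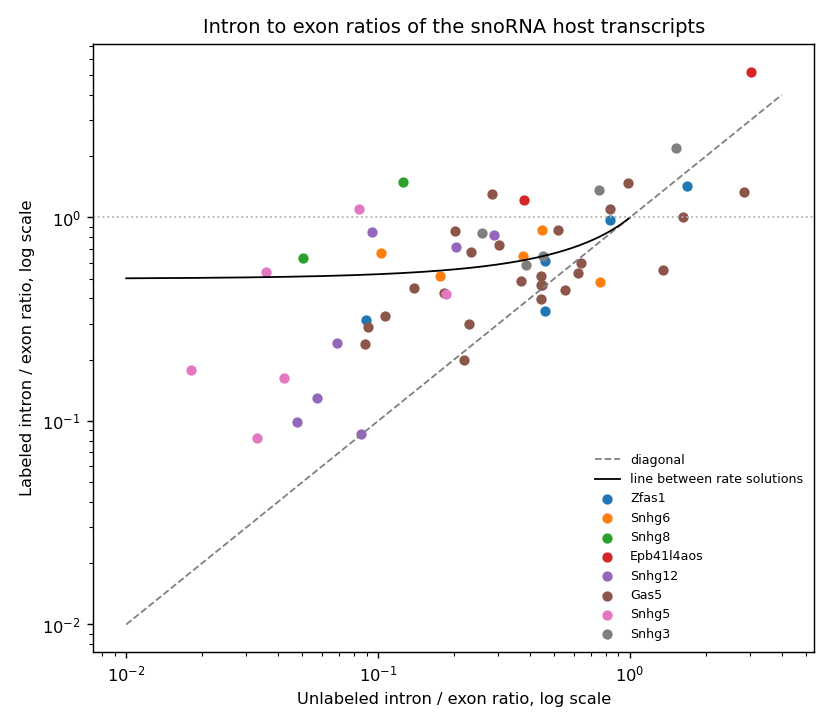
Labeled against unlabeled intron to exon ratio (both axes on a log scale) of the 57 host transcripts, 1 point per transcript and 1 color per gene. Snhg5, Snhg8 and Snhg12 lie mostly at unlabeled ratios below 0.2, 46 points lie above the dashed diagonal, and 12 points lie at or above the dotted line at a labeled ratio of 1.

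What counted as an intron was itself mixed. In 38 of 57 host transcripts every intron base lay inside an exon of another transcript of the gene. Every one of the 57 held at least 1 snoRNA, and snoRNA genes took 5.14 to 52.2% of the intron bases, median 23.8%. Reads of a retained exon, of unspliced RNA and of a snoRNA cannot be told apart in such an intron value.

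Values of the snoRNAs depended on their length. Of the 33 snoRNAs in host introns, 10 were above 0 in labeled and 6 in unlabeled RNA, against 278 and 155 of all 1507 snoRNA rows, which is 18.4 and 10.3%. None of 17 snoRNAs of up to 80 bases was above 0 in either library, and the same held for all 288 snoRNA rows of that length in the table. Of 7 snoRNAs of 81 to 93 bases, 3 were above 0 in labeled RNA and 0 in unlabeled RNA, against 31 and 7 of 309 rows of more than 80 and up to 120 bases. Of 9 host snoRNAs over 120 bases, 7 and 6 were above 0. In the table, 219 and 123 of 866 rows of up to 159 bases and 28 and 25 of 44 longer rows were. A value listed at 0 can be a failed estimate for so short an RNA, and no fold is given for it.

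The longer snoRNAs were higher in labeled RNA where they had values. Snora73a, one of the longest H/ACA box snoRNAs, had 867.8 labeled and 367 unlabeled, and Snora73b had 738.1 and 295. Snora61, from Snhg12, had 180.7 and 67.2. These 3 differed by 2.37 to 2.69-fold, less than Snora24 from Snhg8, which had 239.6 and 9.02, a ratio of 26.6. Snord22, in an intron of Snhg1, had 1432 and 300.9 and was the only value from the Snhg1 locus. Listed at 0 in unlabeled RNA were Gm22357 at 269 and Mir5117 at 309.9 in labeled RNA, both in Gas5 introns, Gm25878 of Zfas1 at 268.6 and Snora44 of Snhg12 at 176.3. The median ratio over the 137 snoRNA rows of the table above 0 in both libraries was 2.94.

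In Snhg3 the intron value moved with the snoRNA share of the intron bases. With 48.9, 45.9, 32.2, 31.1 and 7.71% of the bases in Snora73a and Snora73b, the unlabeled intron values of its 5 transcripts were 187.1, 101.4, 71.0, 69.5 and 26.9. The labeled values were 490.8, 269, 173, 175.9 and 119.6. Not all hosts followed this, and Snhg6 and Zfas1 went the other way between their highest and lowest shares. The unlabeled intron value was 7.18 at 39.9% and 28.3 at 5.14% in Snhg6, and 3.59 at 27.5% and 42.8 at 6.22% in Zfas1. In Snhg3 the values of the snoRNA rows, spread over the intron bases, came to 77.1 to 150.1% of the unlabeled intron values. In Snhg8 the same figure was 80.4 and 89.0%, in Snhg12 it was 0 to 95% and in Epb41l4aos 6.10 and 10.0%. In Gas5, Snhg5, Snhg6 and Zfas1 it was 0, since their snoRNAs were listed at 0 in unlabeled RNA. The snoRNA rows and intron rows are estimated from the same reads, and the part of mature snoRNA in the intron values was not tested.

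**Figure D4:**
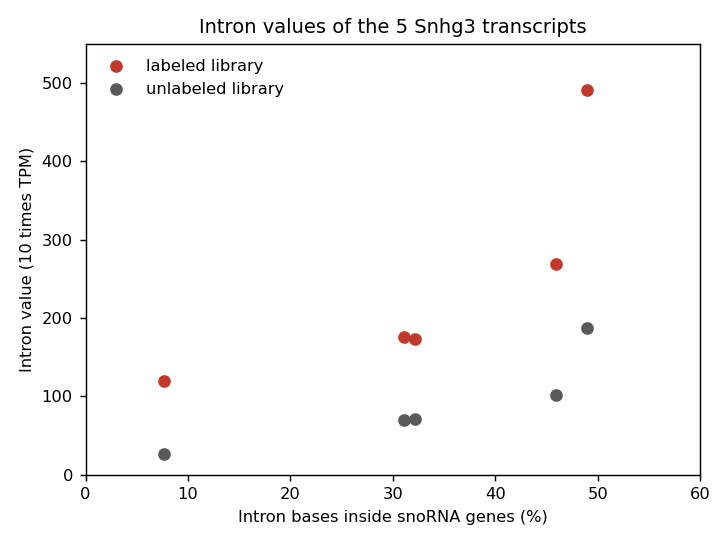
Intron value (vertical axis, 10 times TPM) of the 5 Snhg3 transcripts against the percent of their intron bases inside snoRNA genes (horizontal axis), in labeled (red) and unlabeled (gray) RNA. The unlabeled value is 26.9 at 7.71% and 187.1 at 48.9%.

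The study's model takes the labeled and unlabeled intron to exon ratios and returns a processing and a degradation rate. It allows a transcript only where the labeled ratio is below 1 and above the unlabeled ratio. It allowed 37 of 57 host transcripts, where it allowed 62.1% of all transcripts. Of the other host transcripts, 12 had a labeled ratio of 1 or more and 8 lay on or below the diagonal. Of the 37, 15 lay above the line between the model's regions and had 1 solution each. The other 22 lay below it and had none. They were given the closest rates among those that meet 1 of the model's equations. Their distances in log space from the measured ratios ran from 0.0761 for a Snhg6 transcript to 2.20 for a Snhg12 transcript. The median degradation half-life was 16.5 min for the hosts, with a range of 0.980 to 141.7 min, and 19.1 min for all transcripts with rates. The host median was 2.89 min when both rates of those 22 were varied together to come closest to the measured ratios, a fit that was not made for all transcripts, so no order of hosts and other transcripts is read from these medians. It was 19.1 min with the second library taken as total RNA and also with leaked unlabeled RNA subtracted.

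Rates could be had for the most abundant transcript of 4 hosts only. The half-life was 141.7 min for Snhg12, 47.5 min for Snhg8, 22.8 min for Snhg5 and 1.68 min for Snhg3. Under other settings these ran from 141.7 to 199 min, 47.5 to 130.2 min, 4.55 to 64.4 min and 0.733 to 7.04 min. The low ends for Snhg12 and Snhg8 repeat the first values, since the fit of both rates together leaves an exact solution unchanged. The Snhg5 and Snhg3 transcripts had no exact solution and lay at distances of 0.929 and 0.195 from the measured ratios. Gas5, Zfas1 and Snhg6 lay below the diagonal and Epb41l4aos had a labeled ratio above 1. Isoforms of a host also differed. In other transcripts the half-life was 16.5 to 75.3 min for Snhg12 and 9.52 to 60.7 min for Snhg5. The values of 75.3, 60.7 and 9.52 min had no exact solution and lay at distances of 2.20, 2.00 and 0.474. With both rates fitted together they were 2.84, 3.95 and 1.70 min. The half-life was 0.980 and 36.4 min for other Snhg3 transcripts, and no other Snhg8 transcript had a rate. The half-lives of the most abundant transcripts of Snhg12, Snhg8, Snhg5 and Snhg3 stood in the order of their exon ratios, 3.51, 3.46, 2.22 and 1.66. The longest half-life thus went with the highest exon ratio among these 4 transcripts. The top ratios were close, and by summed exon values Snhg8, at 4.57, lay above Snhg12, at 4.21. In the model a shorter half-life gives a higher labeled to unlabeled ratio when the other rates are equal. They were not, since the processing half-lives were 20.6, 6.71, 2.70 and 2.26 min. No order of turnover is therefore read from the 4 transcripts, and the reason for the shared order was not tested. The model takes the intron value as precursor RNA, and the values above for snoRNAs and shared exons stand beside these rates.

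The genes closest to the median host on exon level, exon ratio and both intron to exon ratios, among 15592 genes, were Hmces, Slc9b1, Rnf165, Stc2 and Ccdc58, at distances of 1.09 to 1.22. Stc2, a secreted glycoprotein hormone, had summed exon values of 831.9 and 190.1, and Hmces, a DNA repair protein, had 679.9 and 323.5. Of the hosts themselves, Zfas1 lay at 1.03, Snhg6 at 1.32 and Snhg3 at 1.61, and Snhg5 at 5.47 was the farthest.

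The cell type in the labels was checked with marker genes. Of 10 pluripotency genes none was at 0 and 9 were above 100 in unlabeled RNA, with Pou5f1 at 255.8 and Nanog at 845.9. The 6 fibroblast markers summed to 8.07 labeled and 18.9 unlabeled, with Col3a1 and Postn at 0 in both, and the 4 primitive endoderm markers to 3.44 and 10.9, with Gata6 and Sox17 at 0. Dnmt3b, at 433.2 and 871, and Otx2, at 195.5 and 234.6, which are also made in later pluripotent cells, were present, while Fgf5, the other gene of that list, was at 3.98 and 2.15. The 3 neural markers summed to 22.6 and 59.8 and the 3 mesoderm markers to 2.87 and 4.85. The columns of the libraries were scaled to the same total, and the depth behind the values is unknown.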

How the data were processed

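The 2 libraries, labeled and unlabeled RNA of replicate 1, came in 1 table with a value for the exons and a value for the introns of each transcript. According to the methods and the submitters' processing notes, the authors removed reads of ribosomal RNA, aligned the rest to exonic and intronic sequences of mouse GRCm38 (mm10) with STAR (2.5.0 in the notes) and quantified them with RSEM as TPM. The deposited values are a relative signal equal to 10 times TPM by the sum of each column, and they were used unscaled. Read numbers are not part of them, and the depth and the counting error of a value are therefore unknown. All columns of sample values were used.

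Transcripts were matched by identifier to GENCODE M21, and 110366 of 121429 matched. Exon ratios were computed without a pseudocount for transcripts with a mean exon value above 1 and values above 0. Intron to exon ratios needed all 4 values above 0. A 2-fold difference was called. Gene values were sums over transcripts. A sum grows with the number of isoforms, so the most abundant transcript is given beside it. Rates followed the study's equations, solved on 4000 grid points, and the solver was tested on simulated data. Python 3.11.15, numpy 2.4.6, pandas 2.3.3 and scipy 1.17.1 were used. Named were all hosts with their most abundant transcript, the highest and lowest gene of each list with summed exon values of at least 100 in both libraries, and the 5 genes nearest to the median host. Other transcripts, snoRNAs and markers were named after their values were seen. The genes and lists were chosen with earlier results of these data known. The alternatives were another minimum, a pseudocount of 0.1, no retained-intron transcripts, 1 transcript per gene, centering, subtraction of leaked unlabeled RNA, other model settings and, chosen after seeing the data, no Gas5 and list values by the most abundant transcript.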

Additional observations from a re-analysis of the deposited data

How the results depend on the processing

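Over the alternatives, the median log2 exon ratio ran from 1.73 to 2.00, the labeled intron to exon median from 0.534 to 0.640 and the unlabeled one, 0.288 as reported, from 0.195 without Gas5 to 0.382 with 1 transcript per gene. No transcript was 2-fold lower under any. Counts changed where transcripts were left out, which lowers them by construction. Without retained-intron transcripts, 24 of 30 were 2-fold higher, 7 had a labeled and 2 an unlabeled intron to exon ratio of 1 or more, and the model allowed 21. With 1 transcript per gene, these were 7 of 8, 1, 0 and 4. Without Gas5, chosen after seeing the data, they were 27 of 33, 7, 3 and 23 of 32. The exon ratio of Snhg6 was 6.74 by sum and 11.6 by its most abundant transcript, and the other ratios stayed within 1.5-fold. With leaked unlabeled RNA subtracted, at 0.139 of the unlabeled value, 47 of 58 were 2-fold higher. Half-lives of the most abundant transcripts moved by more than 1.5-fold in 6 of 12 alternatives. These include a fit of both rates together, which by construction left the exact solutions of Snhg12 and Snhg8 unchanged. The host median went from 16.5 to 2.89 min in that fit. Taken as total RNA, the second library gave 130.2 min for Snhg8.

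No paired analysis was possible because each kind of RNA was present in a single library and the comparison involved no test. Depth is unknown, so that low values such as the unlabeled introns of Snhg8 have no error.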
